A study of Mus musculus with 28 samples.

Results

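Cells that had lost both copies of *Pax1* were compared here with cells that had lost 1. The comparison sets 5 arrays of *Pax1-/-* cells against 5 arrays of *Pax1+/-* cells, 10 of the 28 arrays of the series. They were chosen by genotype and by chip, as all arrays of EGFP(+) cells on the 3 chips that hold both genotypes, named here chips 1, 2 and 3. Chip 1 carries 2 *Pax1-/-* and 1 *Pax1+/-* arrays, chip 2 carries 2 and 2, and chip 3 carries 1 and 2. Of 19057 genes with a named probe, 11715 passed the filter on detection and were tested.

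Both genotypes are mouse embryos at E12.5 of a mixed 129Sv/C57BL/6/129X1/129S1 background. In the mutant allele EGFP disrupts the paired-box exon of *Pax1*. *Pax1-/-* embryos carry this allele in 2 copies and *Pax1+/-* embryos in 1, next to a normal allele, and no *Pax9* mutation is given for either. The number of EGFP copies, on which the sort depends, therefore differs with the genotype and cannot be told apart from it. The 4 *Pax1 WT:+/EGFP* arrays of the same chips, in which EGFP follows a functional Pax1 protein on 1 allele, entered the fit only to estimate the spread and to define the first step of the loss. Vertebral columns of 2 embryos were pooled for each replicate, so that an array averages 2 embryos and p-values measure the spread between such pools.

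*Pax1* encodes a transcription factor with a paired DNA-binding domain. It is expressed in the sclerotome, the part of the somite that forms vertebrae, and then in the condensing anlagen of the intervertebral discs. Its paralogue *Pax9* is expressed in the same cells and can stand in for part of its function. In mice the undulated mutations of *Pax1* disturb the vertebral column, and *Sox9* with *Sox5* and *Sox6* drives the cartilage genes of the same cells.

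The share of probes detected was 45.4% to 48.6% on *Pax1-/-* arrays and 45.4% to 48.2% on *Pax1+/-* arrays, and the upper quartile of the intensities was 89.4 to 120.4 and 90.4 to 124. Any 2 of the 10 arrays correlated at 0.946 to 0.980 over genes. *Pax1+/-* B1, B2 and B4 stood apart from the other arrays. Their *Xist* levels, 4.59, 4.71 and 4.58 on the log2 scale, lay far below the 7.28 to 9.67 of the 5 *Pax1-/-* arrays, while the Y-linked *Kdm5d* was high in them (8.63, 8.77 and 9.43). *Pax1+/-* B3 had the reverse, with *Xist* at 10.26 and *Kdm5d* at 5.53, and B5 had both (9.52 and 7.58). By these transcripts every *Pax1-/-* pool held both sexes and only 1 of the 5 *Pax1+/-* pools did. The same arrays B1, B2 and B4 had the lowest levels of several marker lists for other cell types, which are given below. Values within single chips are printed beside many of the results for this reason.

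*Pax1* itself was measured by 2 probes, and these moved in opposite directions. At the probe for cDNA AK041531 the levels were 11.08, 11.19, 11.41, 11.33 and 11.10 in *Pax1-/-* B1 to B5, against 11.48, 11.54, 12.02, 11.53 and 11.58 in *Pax1+/-* B1 to B5. Every *Pax1-/-* array lay below every *Pax1+/-* array. The difference was −0.41 (exact two-sided permutation p = 0.00794, the smallest that 5 against 5 arrays allow, and 0.0132 after adjustment over 5 values). At the probe for transcript NM_008780 the levels were 10.87, 10.68, 10.66, 10.73 and 10.89 in *Pax1-/-* cells, against 10.36, 10.34, 9.80, 10.19 and 10.37 in *Pax1+/-* cells. Here every *Pax1-/-* array lay above every *Pax1+/-* array, by 0.56 on average (exact permutation p = 0.00794, adjusted 0.0132).

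The contrast between the probes, first minus second, was 0.46 ± 0.24 in *Pax1-/-* and 1.42 ± 0.45 in *Pax1+/-* cells (SD, n = 5 each), a change of −0.96. As the groups separate in opposite directions at the 2 probes they must separate here, so no test is given for it. The adjustment over 5 values still counted this contrast, which makes the adjusted permutation p-values of *Pax1* smaller than without it. The change held within chips 1, 2 and 3 at −1.59, −0.88 and −0.95, and was −0.77 without *Pax1+/-* B3, whose value of 2.22 was the highest. Over all 28 arrays normalized together, the contrast was −0.37 to 0.78 on the 8 *Pax1-/-* arrays, 3 of which share a replicate name with another and may not be separate samples, and 1.17 to 2.31 on the 5 *Pax1+/-* arrays. In *Pax1 WT:+/EGFP* cells of chips 1 to 3 it was 1.03 ± 0.36 (SD, n = 4). Averaged to a gene, *Pax1* differed by only 0.08 (standard error 0.08, limma adjusted p = 0.843, exact permutation p = 0.0397, adjusted 0.0496). As this adjusted permutation p counts the contrast among its 5 values, it is not taken as below 0.05. The direction of the gene turns to −0.41 if the probe AK041531 alone stands for it. In limma over all 23384 probes neither probe passed (adjusted p = 0.348 and 0.19). The position of the 2 probes relative to the EGFP insertion was not analysed here.

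**Figure D1:**
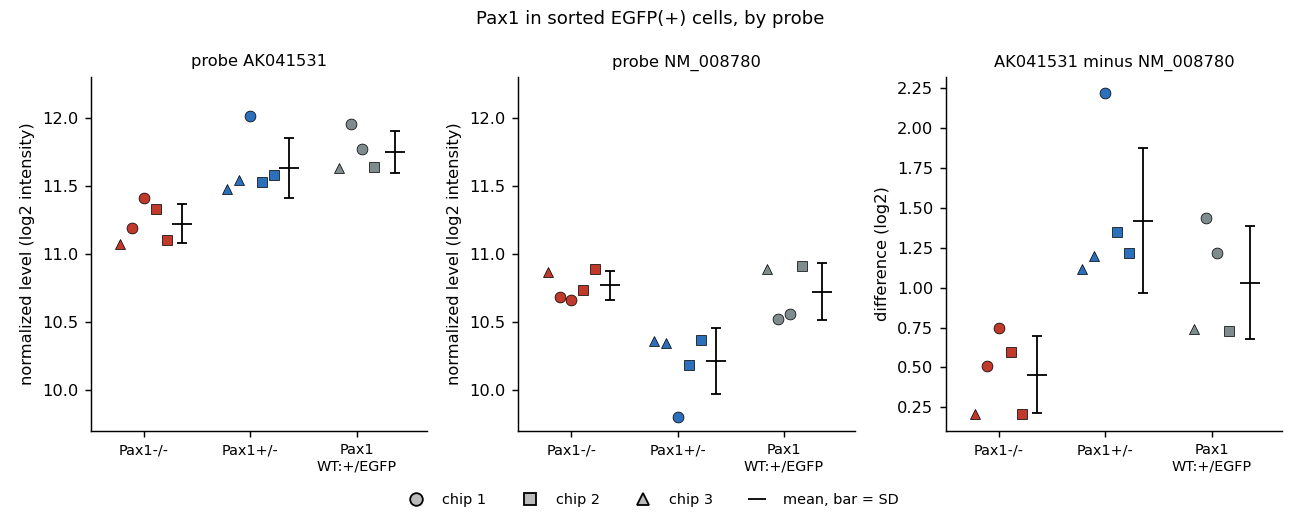
Normalized log2 level of *Pax1* at 2 probes (left and middle panel) and their difference (right panel) in each array of *Pax1-/-*, *Pax1+/-* and *Pax1 WT:+/EGFP* cells, with chips as symbols and the mean ± SD as a bar. *Pax1-/-* arrays lie below *Pax1+/-* arrays at the probe AK041531, above them at the probe NM_008780, and at 0.21 to 0.75 against 1.12 to 2.22 in the difference.

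*Pax9* had levels of 7.81, 6.54, 7.63, 7.24 and 7.03 in *Pax1-/-* cells, against 7.61, 7.62, 7.75, 7.22 and 7.25 in *Pax1+/-* cells. The groups overlapped, and the difference of −0.24 was within the spread (exact permutation p = 0.413, limma adjusted p = 0.865). It was −0.67, −0.10 and 0.20 within chips 1, 2 and 3. A change of the paralogue with the loss of the second *Pax1* allele was thus not detectable with these arrays.

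The promoters of *Pax1* and of *Wwp2*, a gene that is described with the cartilage genes, were chosen after the match was seen and are shown because both hold the letters GTCACG (or CGTGAC on the other strand), a core of sites bound by paired domains of this family. The windows run from 250 bases before to 50 bases after the RefSeq start (build GRCm38.p6, plus strand in both), with the core in capitals.
*Pax1*, chr2:147364744-147365043: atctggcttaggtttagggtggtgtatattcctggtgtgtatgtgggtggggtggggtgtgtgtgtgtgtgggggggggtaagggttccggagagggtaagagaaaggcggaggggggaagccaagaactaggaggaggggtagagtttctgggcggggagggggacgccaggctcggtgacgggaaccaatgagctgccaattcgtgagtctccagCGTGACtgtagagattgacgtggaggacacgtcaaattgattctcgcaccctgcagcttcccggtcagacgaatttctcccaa
*Wwp2*, chr8:107436120-107436419: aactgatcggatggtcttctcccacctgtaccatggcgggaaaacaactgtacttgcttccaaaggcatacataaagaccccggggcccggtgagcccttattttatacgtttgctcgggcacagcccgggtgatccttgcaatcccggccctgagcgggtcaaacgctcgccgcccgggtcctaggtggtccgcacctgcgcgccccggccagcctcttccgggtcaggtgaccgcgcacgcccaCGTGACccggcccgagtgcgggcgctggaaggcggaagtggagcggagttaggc
Of 32851 such windows 8.22% hold the core. In *Wwp2* it is part of GTCACGTG, an E-box motif that 2.25% of the windows hold. Of the 20 genes with the leading rises and falls, 16 have windows, and 3 of these genes (*Mmp24*, *Slc35f3* and *Wwp2*) hold the core. The match is a description of letters and says nothing of binding in these cells.

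Few genes separated the genotypes once p-values were adjusted. Of 11715 genes limma called 5 (0.0427%) at an adjusted p below 0.05 and a fold change of at least 1.5, 4 higher (0.0341%) and 1 lower (0.00854%) in *Pax1-/-* cells. They are *Crh*, *Tmem87a*, *Exosc9* and *Ide*, which rose, and *Cbll1*, which fell. In each the 5 and 5 arrays did not overlap, as in 249 genes (2.13%) in all, 146 with *Pax1-/-* above (1.25%) and 103 with it below (0.879%). Over all genes the median difference was −0.01, the quartiles were −0.14 and 0.13, and the median standard error was 0.17.

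*Exosc9*, which encodes a subunit of the RNA exosome, had levels of 8.04, 7.34, 7.80, 7.71 and 7.31 in *Pax1-/-* cells, against 6.19, 6.20, 6.05, 5.92 and 6.12 in *Pax1+/-* cells. The lowest *Pax1-/-* array was thus more than a log2 unit above the highest *Pax1+/-* array. The rise was 2.91-fold (log2 1.54, standard error 0.15, adjusted p = 5.8e-04), with 1.52, 1.49 and 1.84 within chips 1, 2 and 3. It was 1.44 to 1.62 when each array was left out in turn, past the threshold each time. The gene's other probe was not detected on any of the 10 arrays.

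*Tmem87a*, a gene of a Golgi membrane protein, rose by 1.84 (standard error 0.19, adjusted p = 5.8e-04), but this rests on 1 of its 2 measured probes. At that probe the levels were 8.95, 8.61, 8.87, 8.37 and 8.70 in *Pax1-/-* cells, against 4.80, 5.04, 5.94, 4.92 and 4.99 in *Pax1+/-* cells. It was detected on all 5 arrays of *Pax1-/-* and on 2 of 5 of *Pax1+/-*, and its difference was 3.56 (adjusted p = 4.97e-04 over probes). For the gene the difference was 1.32, 1.79 and 2.29 within chips 1, 2 and 3. The other probe differed by 0.12 (adjusted p = 0.85), and the groups overlapped. Both are annotated to the same transcript.

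*Crh* encodes corticotropin-releasing hormone, a peptide best known from hypothalamic neurons. Its levels were 7.04, 8.33, 7.93, 8.12 and 6.99 in *Pax1-/-* cells, against 4.33, 4.67, 5.94, 5.67 and 4.80 in *Pax1+/-* cells. It was detected on 5 *Pax1-/-* and 2 *Pax1+/-* arrays and its fitted difference was 2.60 (standard error 0.41, adjusted p = 0.0435). As *Pax1+/-* cells were near background its size is not well determined, and with signals floored at 1 it was 4.32 and not called (adjusted p = 0.343). Within chips it stood at 2.19, 2.32 and 2.54. The call was narrow, as it was lost with the chip as a block (2.53, adjusted p = 0.0644) and with any of 8 single arrays left out, all but *Pax1-/-* B5 and *Pax1+/-* B3 (adjusted p up to 0.137).

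*Ide*, the gene of insulin-degrading enzyme, had levels of 8.47, 8.54, 8.32, 8.29 and 8.44 in *Pax1-/-* cells, against 7.84, 7.51, 7.58, 7.58 and 7.70 in *Pax1+/-* cells. Its rise of 0.77 (standard error 0.12, adjusted p = 0.0411) was alike at its 2 measured probes, 0.82 and 0.72. *Cbll1*, which encodes an E3 ubiquitin ligase that acts on E-cadherin and is part of the RNA m6A methylation complex, had levels of 4.85, 4.81, 5.36, 5.55 and 5.93 in *Pax1-/-* cells, against 6.58, 6.61, 6.21, 6.75 and 6.84 in *Pax1+/-* cells. It was detected on 3 of 5 *Pax1-/-* arrays and all 5 *Pax1+/-* arrays, and fell by 1.30 (standard error 0.20, adjusted p = 0.0411). Both genes moved alike on every chip, *Ide* by 0.85, 0.73 and 0.80 and *Cbll1* by −1.13, −1.05 and −1.74, but neither call is firm. With the chip as a block *Ide* had an adjusted p of 0.0610 and *Cbll1* one of 0.0085. Leaving out any single array ended the call of *Ide* (adjusted p up to 0.132), and leaving out any but *Pax1-/-* B5 and *Pax1+/-* B3 ended that of *Cbll1* (0.0577 to 0.132).

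**Figure D2:**
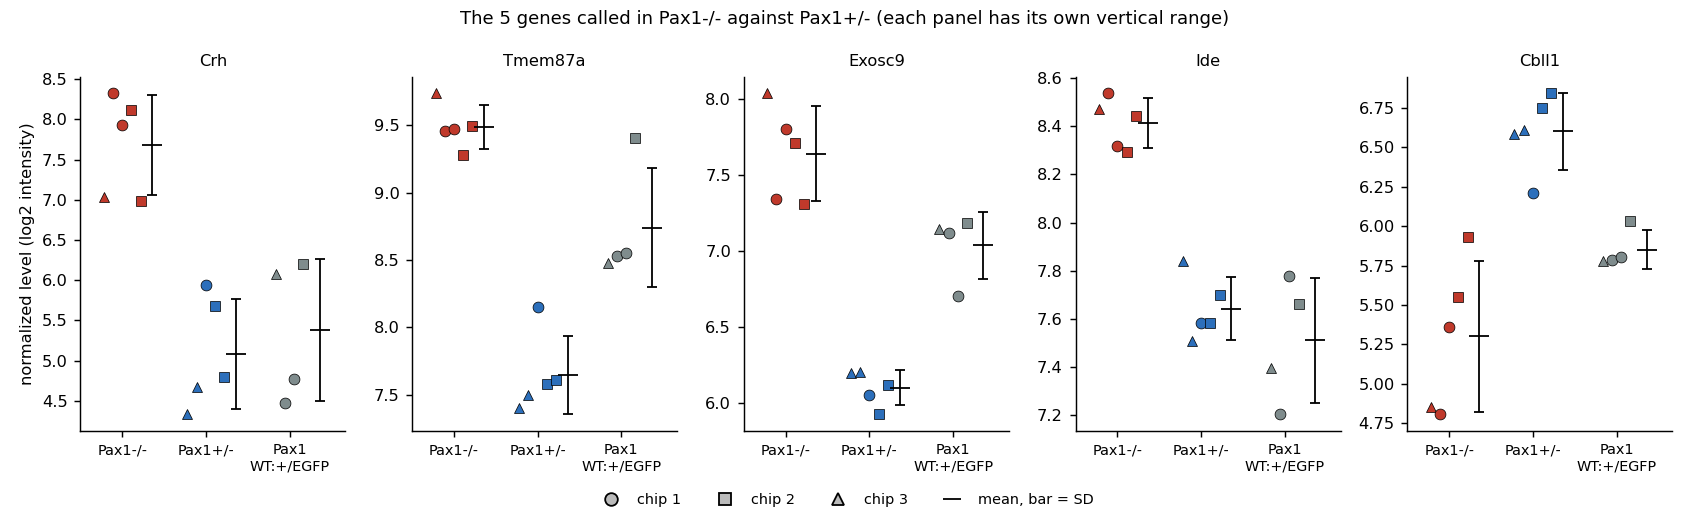
Normalized log2 level of the 5 called genes in each array of *Pax1-/-*, *Pax1+/-* and *Pax1 WT:+/EGFP* cells, with chips as symbols and the mean ± SD as a bar. The *Pax1-/-* and *Pax1+/-* arrays do not overlap in any panel, and *Exosc9* has a span of 5.92 to 6.20 in *Pax1+/-* cells.

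With the chip as a block 5 genes were again called (0.0427%), of which 3 were shared with the fit without it (*Exosc9*, *Tmem87a* and *Cbll1*). At an unadjusted p below 0.05 and a fold change of at least 1.5 there were 356 genes (3.04%), 253 of them higher (2.16%) and 103 lower (0.879%) in *Pax1-/-* cells. Of these, 301 had 1 direction within all 3 chips, 214 higher and 87 lower, as had 3381 of all 11715 genes. The 356 were chosen on the same arrays, so their accord between chips is in part built in and is no replication. When probes were tested singly, 4 of 23384 passed (0.0171%), 3 higher (0.0128%) and 1 lower (0.00428%), and 483 (2.07%) did not overlap between the groups. Beside those of *Exosc9* and *Tmem87a* these were a probe of *B3galt6*, which encodes an enzyme of the glycosaminoglycan linker and rose by 1.92 (adjusted p = 0.0477, and 0.0992 with the chip as a block), and a probe with no gene name that fell by 1.76 (adjusted p = 0.0459).

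The rises that came next missed the adjusted threshold and are given as values. *Dlg2*, a scaffold gene of synapses, had 8.80, 8.69, 8.33, 8.28 and 8.27 in *Pax1-/-* cells, against 7.46, 7.73, 7.21, 7.74 and 7.51 in *Pax1+/-* cells (difference 0.95, adjusted p = 0.0582). At the same adjusted p stood *Nrsn1*, a gene of neuronal membranes (0.86), *Cbln2*, which encodes a synaptic organizer (0.92), *Slc35f3*, a putative thiamine transporter gene, and *Hagh*, which encodes a glyoxalase (1.09). In these 5 genes the groups did not overlap. *Slc35f3* was detected on 1 of 5 *Pax1+/-* arrays, so that its fitted difference of 1.27 is uncertain in size (3.17 with signals floored at 1). *Ccl4*, a chemokine gene of leukocytes, was not detected on any *Pax1+/-* array and was detected on all 5 *Pax1-/-* arrays, at least 2.50-fold higher (adjusted p = 0.0582, and 0.0202 with the chip as a block). The bound sets the mean of the *Pax1-/-* arrays against the lowest level of detected probes on each *Pax1+/-* array. Leaving out *Pax1-/-* B2 brought *Cbln2* past the threshold (adjusted p = 0.0450), and leaving out *Pax1-/-* B3 brought *Slc35f3* (0.00474) and *Ccl4* (0.0290) past it.

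Among the falls that missed the adjusted threshold, *Fibin*, a gene of a secreted protein, had 9.29, 10.07, 9.25, 9.77 and 9.89 in *Pax1-/-* cells, against 10.65, 10.58, 10.67, 10.51 and 10.62 in *Pax1+/-* cells (difference −0.95, adjusted p = 0.0582). The *Pax1+/-* arrays lay close together and above all *Pax1-/-* arrays. *Sorbs2*, a cytoskeletal adaptor gene (−1.13), *Mmp24*, a membrane-bound metalloproteinase gene (−0.76), and *1700030C10Rik* (−0.59) had the same adjusted p. *B2m*, which encodes the light chain of MHC class I, stood at −0.75 (adjusted p = 0.068), *Efnb1*, the gene of the guidance ligand ephrin B1, at −0.64 and *4930555G01Rik* at −0.62 (adjusted p = 0.123 each). None of these 7 genes had overlapping groups. *B2m* rests on 1 of its 3 probes (−1.80, against −0.33 and −0.11 at probes where the groups overlapped), and *Sorbs2* on 2 of 3 (−1.73 and −1.51, against −0.15 with overlap). *Fibin* passed the threshold without *Pax1-/-* B2 (adjusted p = 0.0393) and *Sorbs2* without *Pax1+/-* B1 (0.0489).

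Cartilage genes lay lower in *Pax1-/-* than in *Pax1+/-* cells, without a call. Of 26 listed cartilage matrix genes 20 passed the filter, and 15 of these were lower. At an unadjusted p below 0.05, 7 were lower and 0 higher, where 4.10% of all genes were lower and 4.64% higher at that p. With the fold threshold added there were 4 lower, where 0.879% of all genes were lower. The list had a median of −0.29 beside −0.01 for all genes.

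*Chad*, which encodes the leucine-rich protein chondroadherin, had 4.35, 4.64, 4.65, 4.76 and 5.26 in *Pax1-/-* cells, against 5.89, 5.68, 5.27, 5.61 and 6.43 in *Pax1+/-* cells (difference −1.04, adjusted p = 0.068). It was detected on 1 of 5 *Pax1-/-* arrays and on all 5 *Pax1+/-* arrays. *Col2a1*, the main fibrillar collagen gene of cartilage, had 10.48, 10.19, 10.39, 10.55 and 10.63 against 11.12, 10.999, 10.62, 11.10 and 10.91 in *Pax1+/-* cells (−0.50, adjusted p = 0.229). *Acan*, the gene of the large proteoglycan aggrecan, had 5.80, 6.11, 6.29, 6.24 and 6.79 against 7.63, 7.57, 6.53, 7.22 and 7.09 in *Pax1+/-* cells (−0.96, adjusted p = 0.342). *Pax1+/-* B3 was the lowest of its group in all 3 genes, and in *Col2a1* and *Acan* it lay within the range of the *Pax1-/-* arrays. By probe, the groups did not overlap at the brighter *Acan* probe (−1.23). They overlapped at its other probe (−0.69), detected on 1 of 5 *Pax1-/-* and 4 of 5 *Pax1+/-* arrays. Of 3 *Col2a1* probes 1 did not overlap (−0.40).

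The list mean by array was 6.47, 6.48, 6.59, 6.75 and 6.92 in *Pax1-/-* B1 to B5, against 7.07, 7.02, 6.61, 7.00 and 7.06 in *Pax1+/-* B1 to B5. *Pax1+/-* B3 was again the exception. The median difference was −0.09 within chip 1, the chip of B3, −0.28 within chip 2 and −0.58 within chip 3. B3 was also the *Pax1+/-* array highest in the endothelial and neural crest markers given below, while B5, at 7.63 in the neural crest markers, was not low in cartilage genes. The part of those markers in this difference was not tested.

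Of the transcription factors that act on cartilage genes, *Sox9*, *Sox5* and *Sox6* did not move together. *Sox5* had 6.72, 6.97, 7.09, 7.11 and 7.16 in *Pax1-/-* cells, against 7.76, 7.50, 7.38, 7.63 and 7.63 in *Pax1+/-* cells (−0.57, adjusted p = 0.167). Its groups did not overlap and it was lower within each chip (−0.35, −0.49 and −0.91), and 2 of its 6 probes separated the groups. *Sox9*, the main regulator of chondrogenesis, differed by −0.15 (standard error 0.22, adjusted p = 0.905), with −0.98, 0.21 and −0.05 within chips. *Sox6* differed by 0.23 (standard error 0.32, adjusted p = 0.892). In both the groups overlapped.

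*Wwp2*, a ubiquitin ligase gene that is expressed with *Sox9* in cartilage and hosts a microRNA of chondrocytes, had 6.86, 7.09, 7.26, 7.16 and 7.04 in *Pax1-/-* cells, against 7.75, 7.73, 7.58, 7.64 and 7.97 in *Pax1+/-* cells. The difference was −0.65 (adjusted p = 0.0582), and −0.41, −0.71 and −0.88 within chips. Of its 3 probes 2 gave −0.83 and −0.81 without overlap, and the other gave −0.32 with overlap. Over the 13 measured chondrogenic factors the median was −0.09, and 2 were lower and 1 higher at an unadjusted p below 0.05 (4.10% and 4.64% of all genes).

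Of 21 genes that the study names for *Pax1* and *Pax9* mutants, which were chosen on these samples and so are no independent evidence, 0 were called and 5 were lower at an unadjusted p below 0.05 (*Wwp2*, *Phf20*, *Sox5*, *Col2a1* and *Acan*). Of all genes 4.10% were lower at that p. *Phf20*, a gene of chromatin acetylation, had 8.41, 7.88, 8.30, 8.27 and 8.20 in *Pax1-/-* cells, against 8.81, 8.73, 8.52, 8.86 and 8.89 in *Pax1+/-* cells (−0.55, adjusted p = 0.134). The groups did not overlap. The other 16 genes lay between −0.22 (*Ccn2*) and 0.60 (*Sim2*), and the list had a median of −0.02.

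The identity genes set for the sorted cells (*Pax1*, *Pax9*, *Meox1*, *Foxc2*, *Col2a1* and *Sox9*) were detected on every array. They were not all level. *Col2a1* was lower (−0.50, not called) and the 2 *Pax1* probes separated the groups in opposite directions, as given above. *Foxc2*, a forkhead gene of the sclerotome, had 11.18 to 11.45 in *Pax1-/-* and 11.26 to 11.44 in *Pax1+/-* cells (−0.02, adjusted p = 0.979). *Meox1*, a homeobox gene of somites, had 8.19 to 8.81 and 7.97 to 8.47 (0.35, adjusted p = 0.627). Over 19 measured genes of sclerotome and disc anlage the median was −0.09, with 2 higher and 0 lower at an unadjusted p below 0.05 (4.64% and 4.10% of all genes).

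The one gene of that list without overlap was *Mkx*, which encodes the homeobox factor mohawk of tendon and outer annulus. Its levels were 9.84, 10.01, 10.07, 10.15 and 9.76 in *Pax1-/-* cells, against 9.43, 9.39, 8.93, 9.64 and 9.33 in *Pax1+/-* cells (0.62, adjusted p = 0.112). It was higher on every chip, by 1.11, 0.47 and 0.43. Of 12 measured genes of tendon and syndetome 9 were higher, 3 of them at an unadjusted p below 0.05 and 0 lower (4.64% and 4.10% of all genes), with a median of 0.30. This median was about the same on each chip (0.36, 0.28 and 0.30). By array the list mean was 7.41 to 7.68 in *Pax1-/-* and 7.22 to 7.47 in *Pax1+/-* cells. It was higher still in *Pax1 WT:+/EGFP* cells of these chips, at 7.67 to 7.92. *Pax1+/-* minus *Pax1 WT:+/EGFP* had a median of −0.35 over the list.

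Matrix genes outside cartilage stayed near the middle of all genes. Of 23 genes of collagen fibril organization 15 were higher, with a median of 0.09. *Ogn*, a small proteoglycan gene of fibrils, had 9.12, 9.07, 9.18, 9.51 and 9.001 in *Pax1-/-* cells, against 8.76, 8.78, 8.53, 8.64 and 8.61 in *Pax1+/-* cells (0.51, adjusted p = 0.179). Of 30 other matrix genes the median was 0.05. *Postn*, a matricellular gene of connective tissue, had 7.73, 7.58, 7.73, 7.71 and 7.27 in *Pax1-/-* cells, against 6.69, 6.81, 7.37, 6.64 and 6.84 in *Pax1+/-* cells (0.73, adjusted p = 0.111), where *Pax1+/-* B3 alone overlapped. Without that array it passed the threshold (0.86, adjusted p = 0.0465).

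Hox genes mark the level along the body axis, and the posterior ones lay higher in *Pax1-/-* cells without a call. The 18 measured anterior genes had a median of −0.02 and the 14 posterior genes one of 0.29, with 13 of the 14 higher and 4 so at an unadjusted p below 0.05, where 4.64% of all genes were higher. *Hoxd10* had 11.78, 12.13, 12.16, 12.05 and 11.72 in *Pax1-/-* cells, against 11.60, 11.54, 11.67, 11.55 and 11.50 in *Pax1+/-* cells (0.40, adjusted p = 0.23). The posterior median was 0.57, 0.18 and 0.09 within chips 1, 2 and 3. Whether the dissected columns reached equally far down the axis in both groups was not tested. Of the anterior list *Hoxc6* was at 0.28 (adjusted p = 0.449) without overlap.

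The signalling lists had medians close to 0 and no called gene. For BMP genes the median was −0.04, for TGF-B −0.04, hedgehog −0.10, Wnt 0.02, FGF 0.03 and Notch −0.004. *Id3*, a target of BMP signals, had 6.38, 6.21, 6.47, 6.36 and 6.66 in *Pax1-/-* cells, against 6.77, 6.76, 6.71, 7.16 and 6.92 in *Pax1+/-* cells (−0.45, adjusted p = 0.529). The Wnt antagonist gene *Dkk3* stood at 0.46 (adjusted p = 0.199). In both the groups did not overlap. The hedgehog target *Gli1* was at −0.34 (adjusted p = 0.484), the FGF target *Etv4* at 0.34 (adjusted p = 0.568), the Notch modifier *Rfng* at 0.42 (adjusted p = 0.376) and *Ltbp3*, which encodes a TGF-B binding protein, at −0.23 (adjusted p = 0.5), all with overlap. *Rfng* was detected on 1 of 5 and *Etv4* on 3 of 5 *Pax1+/-* arrays, so the size of their differences is not well determined.

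Growth and metabolism genes were also near level. Of 44 genes of cell cycle and replication 29 were lower, with a median of −0.05, and *Cdk4*, the kinase gene of G1, stood at −0.23 (adjusted p = 0.502) without overlap. Of 38 genes of oxidative phosphorylation 33 were lower, though by a median of only −0.09. Ribosomal protein genes had a median of −0.01. Of 20 genes of hypoxia and glycolysis the median was −0.05, and *Pkm*, the pyruvate kinase gene, had 8.65, 8.60, 7.88, 8.13 and 7.97 in *Pax1-/-* cells, against 8.78, 8.79, 9.08, 8.71 and 9.50 in *Pax1+/-* cells (−0.73, adjusted p = 0.395).

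**Figure D3:**
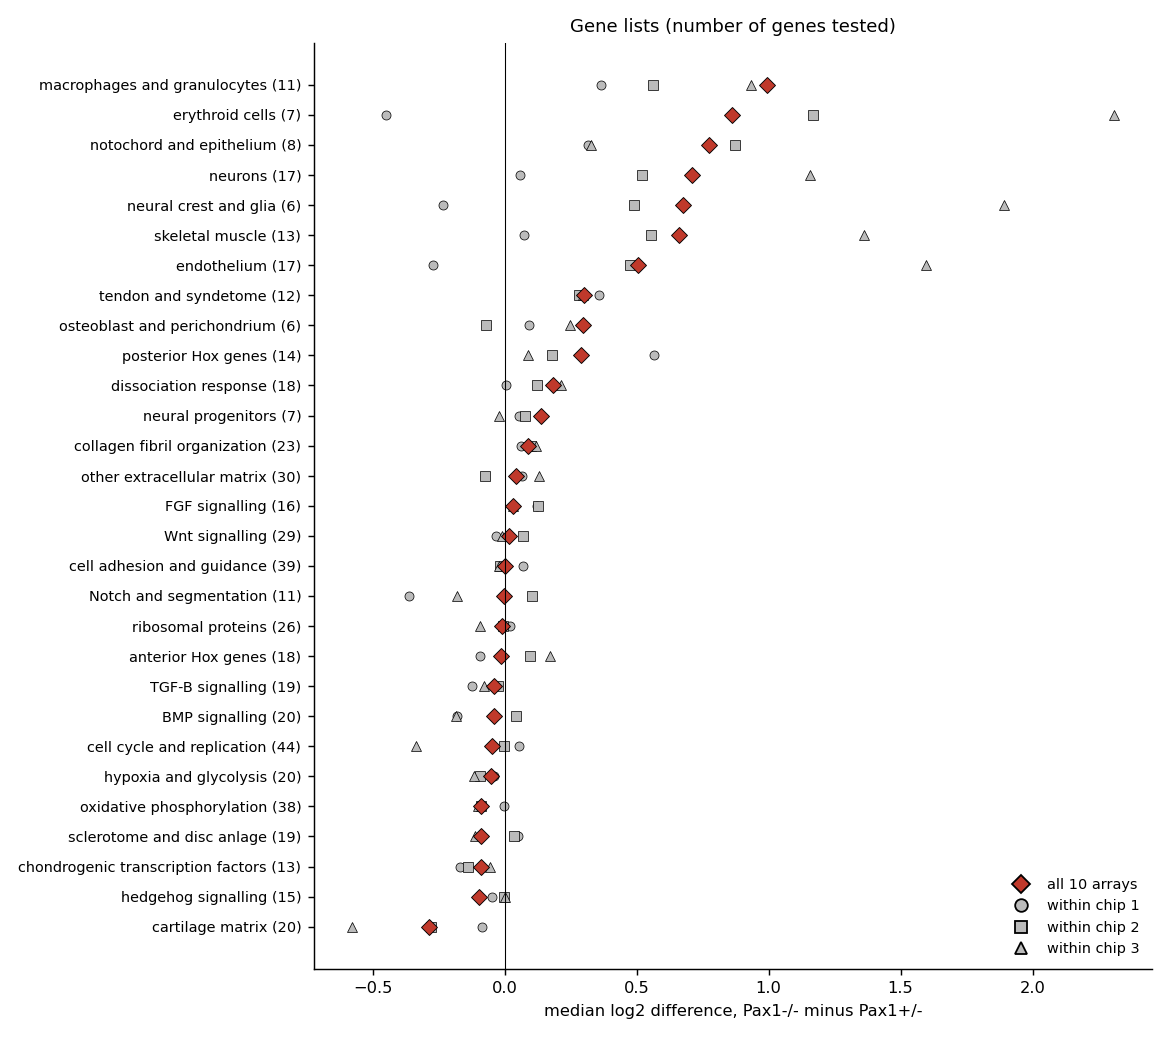
Median log2 difference, *Pax1-/-* minus *Pax1+/-*, of each gene list over all 10 arrays (diamonds) and within chips 1 to 3 (grey circles, squares and triangles), with the number of genes tested in brackets. Tendon genes stay near 0.30 on every chip, while endothelium runs from −0.27 within chip 1 to 1.60 within chip 3.

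Markers of most other cell types were higher in *Pax1-/-* than in *Pax1+/-* cells, by an amount that depended on which arrays were compared. All 17 measured neuronal genes were higher (median 0.71), as were all 11 of macrophages and granulocytes (0.996), all 6 of neural crest and glia (0.68), 12 of 13 of skeletal muscle (0.66), 15 of 17 of endothelium (0.50) and 6 of 7 of erythroid cells (0.86). At an unadjusted p below 0.05 with the fold threshold 8, 6, 1, 7, 5 and 2 of them were higher and 0 lower, where 2.16% of all genes were higher and 0.879% lower, and 0 were called. Many of these genes passed the filter only through the arrays in which they were high, so the counts describe the genes that passed and not the whole lists (17 of 21, 11 of 18, 6 of 12, 13 of 20, 17 of 23 and 7 of 14). In the same order of lists, *Pax1+/-* minus *Pax1 WT:+/EGFP* of the same chips had medians of −0.53, −0.45, −0.34, −0.15, 0.02 and −1.72. List means of *Pax1-/-* arrays overlapped those of *Pax1 WT:+/EGFP* arrays in each list but endothelium. For neurons the latter ran from 6.24 to 7.27 and for erythroid genes from 6.56 to 9.17. In sorted cells, fewer cells of a type and less RNA per cell cannot be told apart.

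The neuronal list mean was 7.27, 6.84, 6.73, 6.92 and 6.73 in *Pax1-/-* B1 to B5, against 5.83, 6.09, 6.66, 6.04 and 6.47 in *Pax1+/-* B1 to B5. The groups just failed to overlap, and *Pax1+/-* B1, B2 and B4 were lowest. Macrophage and granulocyte genes (5.82 to 6.29 in *Pax1-/-*, 4.99 to 5.48 in *Pax1+/-*) and muscle genes (5.93 to 6.58 and 5.41 to 5.85) did not overlap either. For neural crest and glia *Pax1-/-* arrays ran from 7.44 to 8.39, while *Pax1+/-* B1, B2 and B4 had 6.22, 6.37 and 6.49 and B3 and B5 had 7.73 and 7.63. These last 2 arrays lay within the range of *Pax1-/-*. Erythroid genes split in the same way, at 7.52 to 9.10 in *Pax1-/-* and at 6.07, 5.89, 8.62, 6.30 and 7.96 in *Pax1+/-* B1 to B5.

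The within-chip medians follow this split. On chip 1, where *Pax1-/-* B2 and B3 meet *Pax1+/-* B3, the medians were 0.06 for neurons, 0.07 for muscle, −0.27 for endothelium, −0.24 for neural crest and −0.45 for erythroid genes. On chip 3, where *Pax1-/-* B1 meets *Pax1+/-* B1 and B2, they were 1.16, 1.36, 1.60, 1.89 and 2.31. Macrophage genes were the steadier list, at 0.37, 0.56 and 0.93 within chips 1, 2 and 3. *Pax1-/-* B1 was the highest of its group in neurons, neural crest, endothelium, muscle and macrophages. These lists thus do not differ by a like amount in every pair of arrays, and the *Pax1+/-* arrays that are low in them are those with low *Xist*. With the mean of 3 Y-linked genes minus *Xist* as a covariate in the fit, 10 genes were called. *Crh*, *Tmem87a*, *Exosc9*, *Ide* and *Cbll1* were among them (adjusted p 0.00181 to 0.0414). A step difference, described below, then passed in 2 genes and not in 5. The part of the cell markers in the other results was not tested.

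Some single genes show the same, and others do not. *Ednrb*, an endothelin receptor gene of the neural crest, had 10.76, 9.55, 9.01, 9.50 and 9.08 in *Pax1-/-* cells, against 6.87, 6.46, 9.90, 6.57 and 8.78 in *Pax1+/-* cells (1.87, adjusted p = 0.356). The embryonic globin gene *Hbb-y* had 11.49, 10.71, 10.86, 10.62 and 11.83, against 7.29, 6.70, 11.23, 7.12 and 10.87 in *Pax1+/-* cells (2.46, adjusted p = 0.437). Within chip 1 both turned, to −0.62 and −0.45. *Csf1r*, the receptor gene that macrophages depend on, had 5.91, 5.86, 5.70, 5.34 and 5.92 in *Pax1-/-* cells, against 5.00, 4.99, 5.01, 4.99 and 5.15 in *Pax1+/-* cells (0.72, adjusted p = 0.0582), and did not overlap. *Csf1r* did not follow the split, at 0.77, 0.56 and 0.92 within chips 1, 2 and 3. It was detected on 5 *Pax1-/-* and 2 *Pax1+/-* arrays, and passed the threshold without *Pax1-/-* B4 (adjusted p = 0.0405).

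*Rtn1*, a neuronal gene of the endoplasmic reticulum, had 7.74, 7.31, 7.27, 7.42 and 6.70 in *Pax1-/-* cells, against 5.92, 5.56, 6.73, 5.84 and 5.99 in *Pax1+/-* cells (1.28, adjusted p = 0.111). *Tek*, the angiopoietin receptor gene of endothelium, had 7.12, 6.68, 6.46, 6.50 and 6.57, against 4.75, 4.81, 5.14, 6.03 and 5.09 in *Pax1+/-* cells (1.51, adjusted p = 0.111). Unlike the median of its list, *Tek* was higher on each chip (1.43, 0.98 and 2.34). *Cdh1*, the gene of E-cadherin in the list of notochord and epithelium, had 7.00, 7.72, 7.10, 8.23 and 5.84, against 5.38, 5.23, 4.83, 4.69 and 5.58 in *Pax1+/-* cells (2.03, adjusted p = 0.123). Its groups did not overlap, and it was 2.58, 1.90 and 1.69 within chips. Of the 8 measured genes of that list, of 16, 6 were higher (median 0.78).

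The remaining lists held no called gene. Of 7 measured genes of neural progenitors the median was 0.14, and *Sox2*, their SoxB1 factor, was at 0.61 (adjusted p = 0.591). Of 6 measured genes of osteoblasts and perichondrium it was 0.30, with *Mef2c*, a MADS-box factor gene, at 0.48 (adjusted p = 0.586). *Cdh15*, the muscle cadherin gene, was detected on 3 of 5 *Pax1-/-* arrays and not on any *Pax1+/-* array. By the bound used for *Ccl4* it was at least 1.08-fold higher (adjusted p = 0.331). Over 39 measured genes of adhesion and guidance the median was 0.003, with 5 higher and 2 lower at an unadjusted p below 0.05 (4.64% and 4.10% of all genes).

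Of 21 markers listed as defining other cell types, 13 passed the filter. *Sox10* of the neural crest reached 8.62 to 9.91 in *Pax1-/-* cells and 5.03, 6.64, 9.54, 7.50 and 9.23 in *Pax1+/-* B1 to B5. *Stmn2* of neurons had 7.71 to 8.46 and 6.34 to 8.02, and *Actc1* of muscle 7.87 to 8.82 and 6.57 to 7.83. *Tubb3* and *Klf1* were detected on 2 of 5 *Pax1-/-* and 1 of 5 *Pax1+/-* arrays. Markers of other cells were thus measured in EGFP(+) cells of both genotypes, and their part in the called genes was not tested. Among genes of the dissociation response, *Egr1*, an immediate early gene, was 0.73 higher (adjusted p = 0.165), and the 18 measured genes had a median of 0.18.

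**Figure D4:**
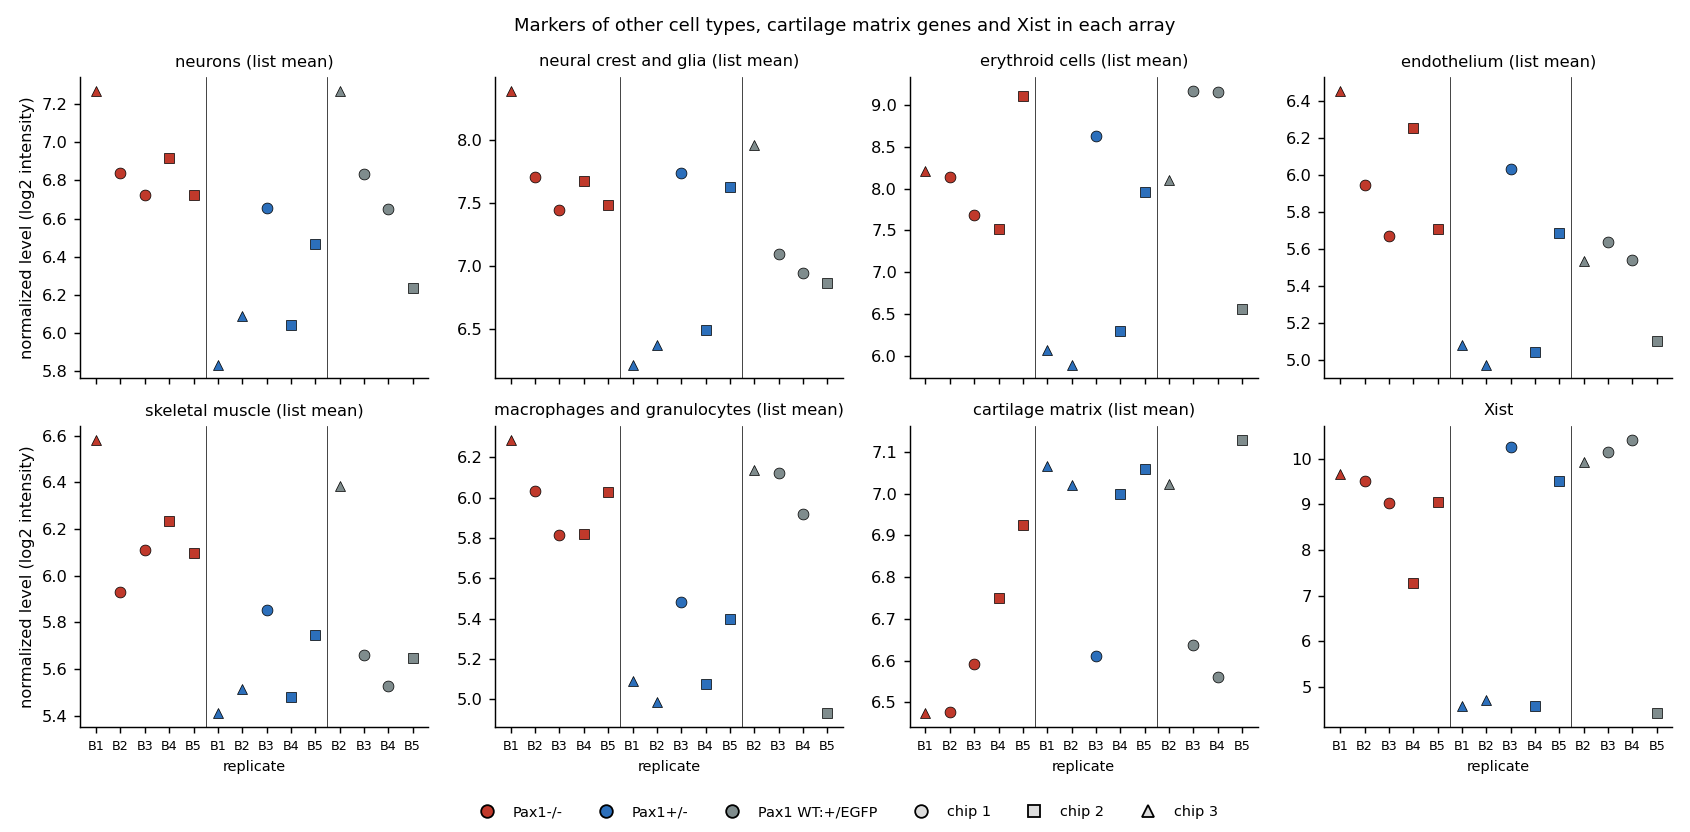
Mean log2 level of 6 marker lists of other cell types and of cartilage matrix genes, and the level of *Xist*, in each array, with genotypes as colours and chips as symbols. *Pax1+/-* B1, B2 and B4 are lowest in neural crest, erythroid and endothelial markers and in *Xist* (4.58 to 4.71) among the 10 arrays compared, and *Pax1+/-* B3 is low in cartilage genes (6.61).

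Loss of the second allele was also set against loss of the first. The first step is *Pax1+/-* minus *Pax1 WT:+/EGFP*, and as both steps share the *Pax1+/-* arrays their difference was tested directly. It also spans 2 kinds of EGFP allele. In limma 5 genes (0.0427%) and 8 probes (0.0342%) had a step difference at an adjusted p below 0.05. *Exosc9* had 7.64 ± 0.31 in *Pax1-/-*, 6.10 ± 0.12 in *Pax1+/-* (SD, n = 5 each) and 7.04 ± 0.22 in *Pax1 WT:+/EGFP* cells (SD, n = 4), so that its second step of 1.54 followed a first of −0.94 (difference 2.48, standard error 0.26, adjusted p = 0.00203). *Tmem87a* behaved alike, with a second step of 1.84 after a first of −1.10 (difference 2.94, adjusted p = 0.00206). In both genes *Pax1+/-* was the low group and not an intermediate.

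The other genes with a step difference were *Egr1*, *A930005H10Rik* and *Slc17a6*. *Egr1* had 10.81 ± 0.34 in *Pax1-/-*, 10.08 ± 0.31 in *Pax1+/-* and 11.59 ± 0.15 in *Pax1 WT:+/EGFP* cells (difference 2.24, adjusted p = 0.0176). *A930005H10Rik* had 6.90 ± 0.34, 7.51 ± 0.21 and 5.56 ± 0.49 in the same order (−2.56, adjusted p = 0.0207), the one of the 5 that was highest in *Pax1+/-*. *Slc17a6*, the vesicular glutamate transporter gene of neurons, had 6.83 ± 0.81, 4.77 ± 0.14 and 7.11 ± 0.94 (4.40, adjusted p = 0.0474). As *Slc17a6* was detected on only 3 of 5 *Pax1+/-* arrays, near background, the size of its step difference is not well determined. The gene follows the neuronal list, whose second step had a median of 0.71 and whose first had one of −0.53. For the cartilage list the second step had a median of −0.29 and the first one of 0.18.

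The region around *Pax1* on chromosome 2 was described because it travels with the engineered allele, which is homozygous in *Pax1-/-* cells. Of the 25 measured genes on each side of *Pax1* in RefSeq order, 0 of 50 were called. At an unadjusted p below 0.05 without a fold threshold 8 of the 50 passed. This was a larger share than the 9.67% of the other 879 genes of the chromosome and the 8.73% of all genes. Whether the shares differ by more than chance was not tested. The median difference of the 50 genes was 0.06. The smallest p belonged to *Mgme1*, a mitochondrial exonuclease gene, with 5.85, 5.66, 5.29, 5.22 and 5.71 in *Pax1-/-* cells, against 5.90, 6.50, 7.00, 6.35 and 6.16 in *Pax1+/-* cells (−0.84, adjusted p = 0.148).

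*Srxn1*, which encodes sulfiredoxin, had 8.39, 8.91, 8.74, 8.44 and 8.57 in *Pax1-/-* cells, against 7.99, 8.05, 8.08, 7.98 and 8.07 in *Pax1+/-* cells (0.58, adjusted p = 0.165), and the *Pax1+/-* arrays lay close together. *Scrt2*, a repressor gene of neurons, was at 1.19 (adjusted p = 0.193). *Mgme1* and *Srxn1* did not overlap between groups, while *Scrt2* did. Of the called genes *Tmem87a* lies on chromosome 2, outside these 50 genes, *Crh* and *Exosc9* on chromosome 3, *Ide* on chromosome 19 and *Cbll1* on chromosome 12. *Fibin*, *Mmp24*, *B2m* and *Phf20* lie on chromosome 2 as well, and the other leading falls do not. With unadjusted p and fold 22 of 930 genes of this chromosome were higher and 18 lower, where 2.16% and 0.879% of all genes were. The part of the chromosome in these differences was not tested.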

How the data were processed

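Amplified RNA of sorted cells was read on Illumina MouseWG-6 arrays. The authors deposited an intensity for each of 45281 probes, with background subtracted in BeadStudio and no normalization, and a detection p-value, and also deposited log2 values that they had quantile normalized in GeneSpring GX, which served as an alternative. Genome build and probe positions are not given in the sources used here. A single gene symbol was given for 34885 probes, several for 18 and no symbol for 10378, and 0 symbols changed through the Entrez ID.

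The intensities of the 14 EGFP(+) arrays of chips 1 to 3 were background corrected (normexp, offset 16), quantile normalized and log2 transformed with limma 3.58.1 under R 4.3.3. The filter asked for detection at p below 0.05 on 3 or more of the 10 *Pax1-/-* and *Pax1+/-* arrays, which 23384 probes met. Probes of the same gene that met it were averaged. Models were fitted with lmFit and eBayes without a block (11 residual degrees of freedom), on 5 *Pax1-/-*, 5 *Pax1+/-* and 4 *Pax1 WT:+/EGFP* arrays. P-values were adjusted by Benjamini-Hochberg over all genes. Levels are not comparable between probes. No count of reads exists on arrays, and their number limits the precision. Scripts were tested on simulated data.

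Named are *Pax1* and *Pax9*, called genes, then the genes of smallest p among those of at least 1.5-fold until each direction has 10, per list its called members or else its member of smallest p, 3 *Pax1* neighbours, the genes that the study names and the defining markers. *B3galt6*, *Slc17a6* and *A930005H10Rik* were named after their values were seen. The members and lists were chosen with earlier results of these data known. Alternatives were chip as fixed or random block, single chips, the replicate number as a block, the 10 arrays alone, all 25 EGFP(+) arrays, other background correction, normalization, filters and probe choice, array weights, trended and robust eBayes, the methods' t-test, other thresholds, a sex covariate and each array left out.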

Additional observations from a re-analysis of the deposited data

Results flagged for a closer look

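A sample far from the other 4 of its group was found in 15 of 210 groups of values examined, where chance alone gives about 1 in 20. *Pax1+/-* B3 was that array 7 times. It was highest for *Tmem87a* (8.15, others 7.40 to 7.61), *Postn* (7.37, others 6.64 to 6.84), *Hoxc6* (11.15, others 10.94 to 11.002), the *Pax1* probe AK041531 (12.02, others 11.48 to 11.58) and the contrast between the *Pax1* probes (2.22, others 1.12 to 1.35). It was lowest for *Sim2* (5.63, others 7.38 to 8.04) and for cartilage matrix genes (6.61, others 7.00 to 7.07).

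Other *Pax1+/-* arrays that stood apart were B1 in *Mmp24* (8.22, others 7.57 to 7.71), B2 in *4930555G01Rik* (8.08, others 7.79 to 7.87) and B5 in *Csf1r* (5.15, others 4.99 to 5.01) and in osteoblast and perichondrium genes (6.78, others 6.47 to 6.55). Among *Pax1-/-* arrays B1 was highest for neural crest and glia (8.39, others 7.44 to 7.70) and lowest for *Ccn2* (10.88, others 11.50 to 11.64). B4 was highest for *Ltbp3* (5.91, others 5.62 to 5.69) and lowest for *Xist* (7.28, others 9.03 to 9.67).

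The change with the second allele differed from that with the first in 5 genes by limma's test of the difference, namely *Exosc9* (2.48), *Tmem87a* (2.94), *Egr1* (2.24), *A930005H10Rik* (−2.56) and *Slc17a6* (4.40).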

How the results depend on the processing

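Values were recomputed under 31 alternatives. *Tmem87a* and *Exosc9* were past the threshold in 28 and 27 of the 30 that give a gene value, *Crh* in 13 and *Ide* and *Cbll1* in 10 each, and none of the 5 changed direction. The number of genes called was 5, and 25 with the chip as a random block, 0, 1 and 1 within chips 1, 2 and 3, 16 with the 10 arrays alone, 43 with all 25 EGFP(+) arrays, 3 with median centring, 16 on the authors' log2 values, 2 with no filter or the study's kind of filter, 1 with the probe of the highest level, 61 with array weights, 24 with trended and robust eBayes, 3 with the methods' t-test after adjustment, 356 at unadjusted p and 10 with the sex covariate. With the replicate block it was 7, although the replicate numbers do not pair the samples (correlations of same-numbered deviations −0.03 to 0.11, own number highest for 2 of 5). Leaving out single arrays gave 2 to 7, with 2 without *Pax1-/-* B1 or *Pax1+/-* B2, B4 or B5 and 3 without *Pax1-/-* B4 or *Pax1+/-* B1. For the fit of all 25 arrays, arrays that share genotype and replicate name were averaged. In this way 3 *Pax1-/-* values and 1 of *Pax1 WT:+/EGFP* include a further chip, which holds no *Pax1+/-* array.

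At unadjusted p with the fold threshold there were 356 genes, 773 within chip 1, 1059 within chip 3, 576 with signals floored at 1, 101 on the authors' log2 values, 829 over single probes and 327 to 475 without single arrays. The step difference gave 5 genes, 9 with the chip as a random block, 48 with all 25 arrays, 8 over single probes, 19 with array weights, 2 with the sex covariate and 2 to 8 without single arrays (2 without *Pax1+/-* B1, B4 or B5, 8 without *Pax1-/-* B5). Of the *Pax1* neighbours 8 passed an unadjusted p below 0.05, 5 within chip 2 and 6 to 10 without single arrays. The *Pax1* probe contrast of −0.96 was −1.59 within chip 1 and −1.04 to −0.77 without single arrays. The cause of these shifts was not tested. Fits within a chip rest on 1 or 2 arrays of a group, and a lone array is assumed to vary like the others. Near background the size of a difference is not well determined: with signals floored at 1 it was 4.89 for *Ccl4* and −2.97 for *Chad*.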
